A study of Hakea prostrata with 26 samples.

Results

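In the growing leaves of Hakea prostrata, 150 of 25047 assembled genes formed a set that was high in the middle of leaf growth and low on either side of it. Hakea prostrata belongs to the Proteaceae and is native to the nutrient-poor sands of south-western Australia. The set was chosen from the measured values. Estimated counts of all isoforms were summed per Trinity gene and scaled to CPM, counts relative to library size, with TMM factors, which correct library totals for composition, over all 26 libraries. They were then averaged per stage as log2(CPM + 1). A gene belonged to the set where the higher of its stage 2 and stage 3 means was at least 4 on this log2 scale and stood at least 1.5 above the highest of its means at stages 1, 4 and M. The level minimum was met by 9529 genes, and both conditions by exactly 150, so a limit of 150 genes removed none. Because the stage means chose these genes, their differences between wild leaf stages are described below without a test.

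The wild leaves came from plants growing in the field and formed 5 groups of 3 libraries, wild leaf stages 1, 2, 3, 4 and M. The labels give no meaning for M, and the 3 libraries of a stage were those with the best RNA among the plants harvested. The other 11 libraries came from hydroponic culture, each the only one of its condition: mature leaves and white roots at 1, 10 and 50 uM phosphate (Pi), and cluster roots on days 0, 1, 4, 7 and 12. Cluster roots are dense groups of short rootlets that Proteaceae form to mobilise scarce phosphate, and white roots are labelled as a separate tissue. The wild leaves had no specific treatment, and the labels give no genotype for any group. Library totals of estimated counts were 4848372 to 6178864 in stage 1 leaves, 4520030 to 11418655 in stage 2 leaves, 4859869 to 6044325 in stage 3 leaves, 1517487 to 3004237 in stage 4 leaves and 2644973 to 4054878 in stage M leaves. In hydroponics they ran from 8163081 to 20283815, and 2 of them, white root at 1 uM and at 10 uM Pi, shared the total of 11508234 while differing gene by gene.

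Many Proteaceae show delayed greening: a young leaf first expands and builds its cell walls and cuticle while pale, and assembles most of its photosynthetic machinery only afterwards. Leaf growth thus passes through phases in which different parts of the cell are built. The deposited table pairs no ID with a gene name. No function is therefore given to any gene below, no pathway list could be matched, and the labelled tissues could not be checked against marker genes.

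The set held a much larger part of the leaf counts at stages 2 and 3 than at the other stages. Its genes together took 0.789 ± 0.0648% of all counts in stage 1 leaves, 2.87 ± 0.282% in stage 2 leaves, 3.99 ± 0.118% in stage 3 leaves, 0.608 ± 0.331% in stage 4 leaves and 0.0916 ± 0.0228% in stage M leaves (SD, n = 3 each). Without TRINITY_DN3242_c0_g1, the member with the most counts, the shares were 0.717, 2.27, 3.33, 0.513 and 0.0888% in the same order. These shares are of library totals without TMM factors, unlike the CPM values. The factors were 1.288 to 1.331 at stage 1, 0.5971 to 0.7025 at stage 4 and 0.4388 to 0.582 at stage M. TMM scaling thus lowers the stage 1 values and raises those of stages 4 and M. The median level of the members was 10.6 to 13.2 CPM in stage 1 leaves, 31.3 to 44.6 CPM in stage 2 leaves, 69.1 to 81.5 CPM in stage 3 leaves, 2.79 to 14.7 CPM in stage 4 leaves and 1.12 to 1.70 CPM in stage M leaves. Over the same libraries the median of all genes that met the level minimum stayed between 38.4 and 43.7 CPM. In bulk leaf RNA, fewer cells of a type and less RNA per cell cannot be told apart.

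**Figure D1:**
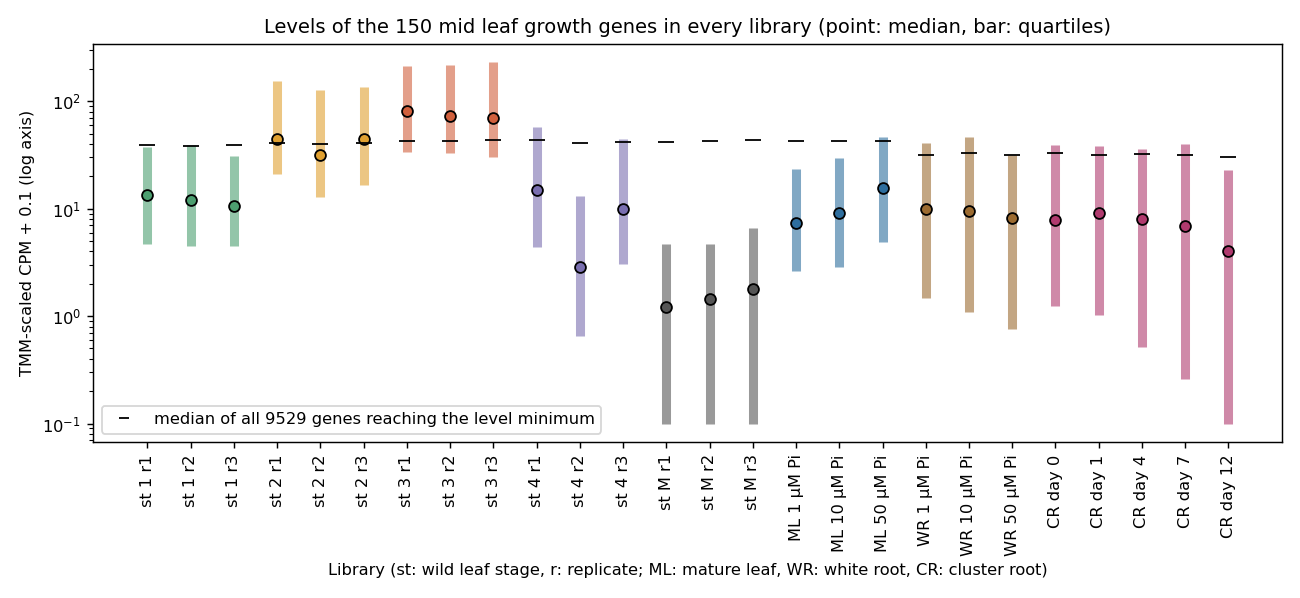
Level of the 150 genes in each of the 26 libraries, in TMM-scaled CPM with 0.1 added, on a log axis. Points are medians over the genes, bars span the quartiles, and dashes mark the median of the 9529 genes that met the level minimum; the members' medians are highest in the 3 stage 3 libraries (69.1 to 81.5 CPM) and lowest in the 3 stage M libraries (1.12 to 1.70 CPM).

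Most of the genes climbed through stage 2, were highest at stage 3 and dropped before stage 4. The highest mean was at stage 3 for 126 genes and at stage 2 for 24. From stage 1 to stage 2 the median log2 difference was 1.66, and 129 of 150 genes were at least 2-fold higher at stage 2, a step taken by 5.74% of the genes that met the level minimum. None was at least 2-fold lower (1.97%). From stage 2 to stage 3 the median was 0.79, with 62 genes at least 2-fold higher (6.13% of the genes at that level) and 4 at least 2-fold lower (3.82%). From stage 3 to stage 4 the median was -2.72 and all 150 genes were at least 2-fold lower (18.9%), while 0 were higher by that much (9.3%). The rule forces a drop of at least 1.5 on the log2 scale from the higher of stages 2 and 3, so these counts say how the members were distributed and nothing about their being unusual.

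Most members were lower still at stage M, whose place in time the labels do not give. At stage M, 99 of 150 genes were 2-fold or more lower than at stage 4, against 11.3% of the genes at the level minimum. At least 2-fold higher were 2 (3.68%). The rule does not order these stages, but it holds both means below the peak. Stage M had the lowest mean of the 5 for 118 genes, stage 4 for 21 and stage 1 for 11. Measured against stage 1, 147 genes were at least 2-fold higher at stage 3 (17.3%) and 1 was at least 2-fold lower (8.18%). All 150 were at least 2-fold lower at stage M than at stage 3 (25.3%), and 0 higher (15.9%). For the 126 genes highest at stage 3 the rule itself forces both differences, so these counts only describe the members. In 112 genes the means followed one order. They rose from stage 1 through stage 2 to stage 3, stage 4 was lower than stage 3, and stage M was lower still. At stage M 67 genes had a mean log2(CPM + 1) under 1, against 13 genes at stage 1 and 21 at stage 4. Outside the peak, the nearest stage was stage 1 for 83 genes, stage 4 for 64 and stage M for 3. That split depends in part on stage 4 replicate 2, the lowest stage 4 library in 112 of 150 members. TRINITY_DN19214_c0_g1, counted under stage 1, had 26.6, 23.8 and 32.7 CPM there and 100.5, 1.11 and 95.9 CPM at stage 4.

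The libraries of the members can also be set side by side. The 3 libraries of the peak stage all lay above all 9 libraries of stages 1, 4 and M in 141 of 150 genes, where 10.7% of the genes at the level minimum showed this. In 86 genes all 6 libraries of stages 2 and 3 lay above those 9 (4.74%). The rule chose the genes on the means of these same libraries, so both counts only describe how the members spread and nothing is read from them.

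The genes fell into 3 classes by the difference between their stage 2 and stage 3 means. A shared class of 84 genes had means within 1 log2 unit of each other, a stage 3 class of 62 genes was at least 1 log2 unit higher at stage 3, and a stage 2 class of 4 genes was at least 1 higher at stage 2. The classes, cut on these same stage means, differed in their nearest outer stage. In the shared class the nearest outer stage was stage 1 for 60 of 84 genes, and in the stage 3 class it was stage 4 for 42 of 62. All 4 genes of the stage 2 class had stage 1 as the nearest. These counts come from the stage means that chose the genes, stage 4 replicate 2 included, so they only describe the set.

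**Figure D2:**
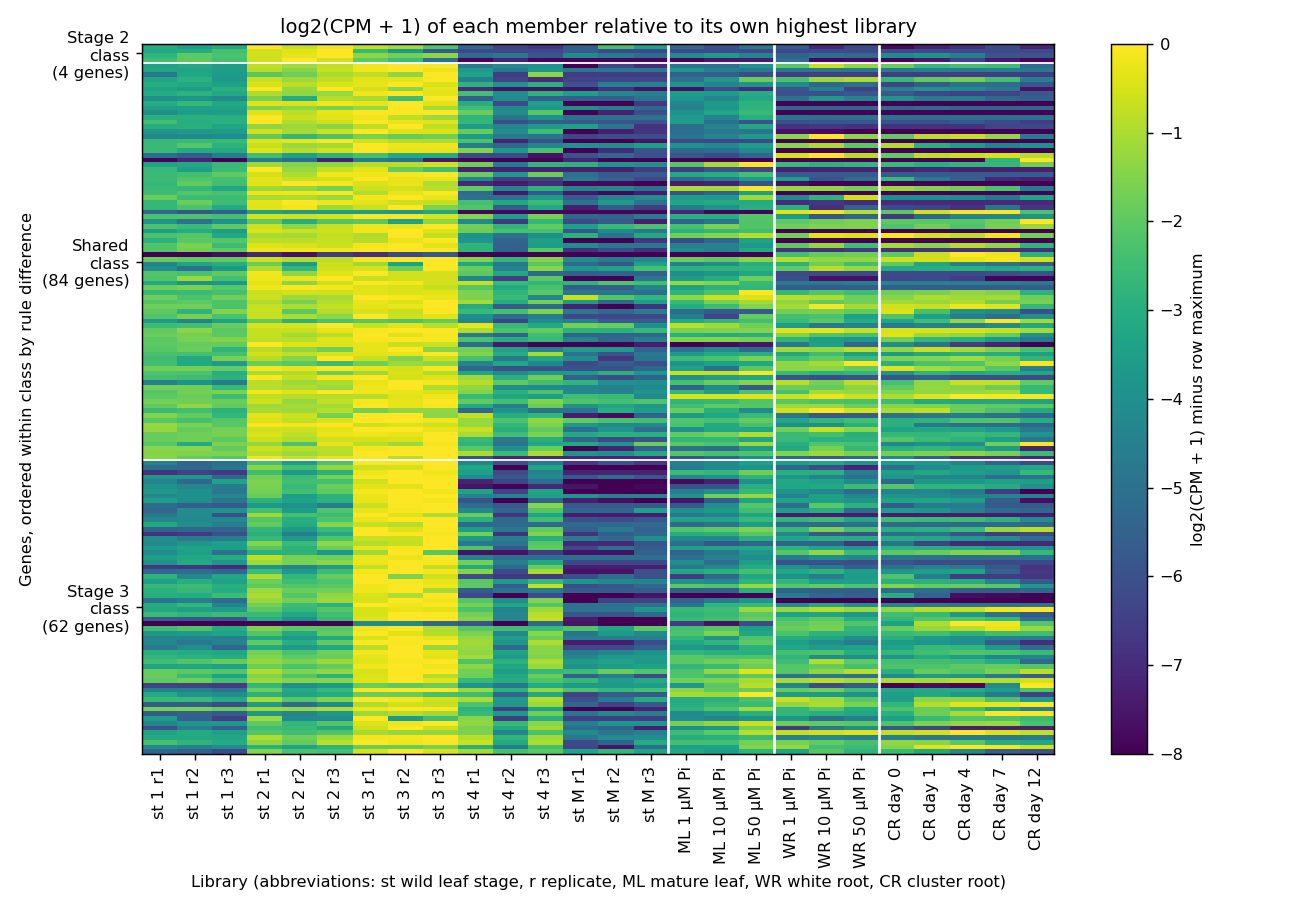
Each row is a gene and each column a library, coloured by log2(CPM + 1) minus the highest value of that gene in any library; rows are grouped into the stage 2 class (4 genes), the shared class (84) and the stage 3 class (62). The bright block covers the stage 3 libraries in the lower rows and the stage 2 and 3 libraries in the upper rows, and the stage 4 replicate 2 column is darker than its 2 neighbours.

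In the stage 3 class TRINITY_DN8819_c1_g2 had the largest rule difference, 4.91 on the log2 scale. It had 3.75, 1.48 and 2.01 CPM in stage 1 leaves, 17.8, 7.29 and 20.6 CPM in stage 2 leaves, 100.01, 95.6 and 97.9 CPM in stage 3 leaves, 3.89, 0.557 and 2.94 CPM in stage 4 leaves and 0, 0.672 and 0 CPM in stage M leaves. Its stage 3 libraries lay within a few CPM of each other and well above every other library. TRINITY_DN19214_c0_g1 was next with a difference of 4.73. It averaged 27.7 ± 4.54 CPM in stage 1 leaves, 312 ± 116 CPM in stage 2 leaves, 769 ± 178 CPM in stage 3 leaves, 65.8 ± 56.1 CPM in stage 4 leaves and 0.411 ± 0.361 CPM in stage M leaves (SD, n = 3 each). Its 3 stage 4 libraries had 100.5, 1.11 and 95.9 CPM, so replicate 2 was far below the others.

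In the shared class TRINITY_DN2963_c0_g1 led with a difference of 3.30. It averaged 27.9 ± 3.84 CPM in stage 1 leaves, 162 ± 21.9 CPM in stage 2 leaves, 282 ± 16.3 CPM in stage 3 leaves, 14.9 ± 4.44 CPM in stage 4 leaves and 1.33 ± 1.34 CPM in stage M leaves (SD, n = 3 each). The lowest of its 6 libraries of stages 2 and 3, at 136 CPM, was above the highest of the other 9, at 31.8 CPM. TRINITY_DN15088_c0_g1 followed with 3.23 and lower levels: 1.66 ± 0.253, 13.1 ± 3.83, 24.0 ± 2.24, 0.696 ± 0.607 and 0 CPM at stages 1, 2, 3, 4 and M (SD, n = 3 each).

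The stage 2 class was small, and TRINITY_DN9974_c0_g1 had its largest difference, 2.96. This gene averaged 22.5 ± 3.54 CPM in stage 1 leaves, 184 ± 40.7 CPM in stage 2 leaves, 95.6 ± 44.9 CPM in stage 3 leaves, 2.36 ± 1.83 CPM in stage 4 leaves and 21.7 ± 19.6 CPM in stage M leaves (SD, n = 3 each). Its stage 2 libraries, at 220, 140 and 193 CPM, all lay above its stage 3 libraries, at 136, 103 and 47.4 CPM. It was among the 20 members with a higher mean at stage M than at stage 4, although its stage M libraries, at 3.37, 42.3 and 19.5 CPM, overlapped the stage 4 ones. TRINITY_DN8731_c0_g1, with a difference of 2.57, averaged 9.59 ± 3.47 CPM in stage 1 leaves, 60.7 ± 11.6 CPM in stage 2 leaves and 5.66 ± 5.59 CPM in stage 3 leaves (SD, n = 3 each). It had no counts in any stage 4 library, and of the stage M libraries only replicate 1 held any, at 0.562 CPM.

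The 2 members with the highest CPM at their peak were TRINITY_DN3242_c0_g1 and TRINITY_DN25837_c0_g1, both of the shared class and with a single isoform in the data. CPM is not corrected for transcript length, so these are the members with the most counts. TRINITY_DN3242_c0_g1 averaged 549 ± 98.7 CPM in stage 1 leaves, 5206 ± 915 CPM in stage 2 leaves, 7097 ± 108 CPM in stage 3 leaves, 1396 ± 848 CPM in stage 4 leaves and 52.5 ± 48.4 CPM in stage M leaves (SD, n = 3 each). TRINITY_DN25837_c0_g1 averaged 402 ± 94.4, 2808 ± 206, 3641 ± 541, 938 ± 203 and 153 ± 84.3 CPM at stages 1, 2, 3, 4 and M (SD, n = 3 each). In both, stage 4 still stood above stage 1 on average, although for TRINITY_DN3242_c0_g1 the groups overlapped.

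**Figure D3:**
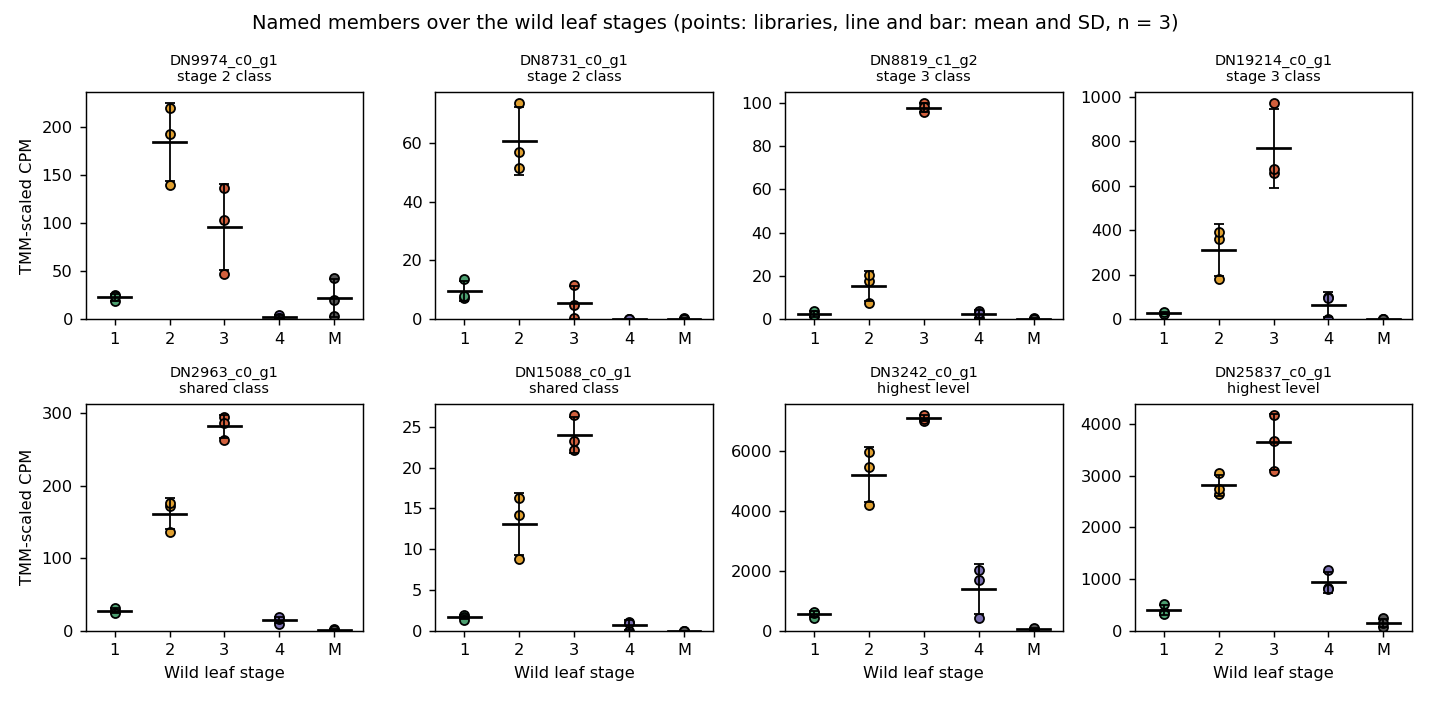
TMM-scaled CPM of 8 named members over the wild leaf stages, with points for libraries and a line and bar for the mean and SD (n = 3). The 2 genes of the stage 2 class peak at stage 2, and the other 6 at stage 3, where TRINITY_DN3242_c0_g1 averages 7097 CPM.

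At the edge of the set the pattern was shallower. The last 2 genes inside were TRINITY_DN3232_c1_g1 and TRINITY_DN55875_c0_g1, with differences of 1.503 and 1.501. TRINITY_DN55875_c0_g1 had 117, 165 and 122 CPM at stage 3 and 77.2, 31.8 and 40.1 CPM at stage 4. The first 2 genes outside were TRINITY_DN11765_c0_g1 and TRINITY_DN15084_c1_g1, with differences of 1.499 and 1.49. TRINITY_DN11765_c0_g1 had 19.9, 10.97 and 22.4 CPM at stage 3 and 16.1, 0 and 3.91 CPM at stage 4, so its groups overlapped.

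One library bore on where the edge fell. In stage 4 replicate 2 the members took 0.227% of the counts, against 0.820% and 0.778% in stage 4 replicates 1 and 3, and their median level was 2.79 CPM against 14.7 and 9.79 CPM. It was the lowest of the 3 stage 4 libraries in 112 of 150 members, and in 36.8% of the genes at the level minimum. With that library left out, 103 of the 150 still met the rule and no other gene did, and 136 of the 150 were at least 2-fold lower at stage 4 than at stage 3. The median stage 4 minus stage 3 difference was then -2.19, against -2.72 with all libraries. What sets that library apart was not tested. The shallowest library was stage 4 replicate 3, where 1 count amounted to 0.979 CPM.

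Most genes chosen without a replicate number were also high mid growth in the libraries left out. The thresholds were applied to the means of 2 replicate numbers, and the same difference was then read in the 5 libraries of the number left out. Of 169 genes chosen without replicate number 1, 164 had a positive difference in the libraries left out, against 23.9% of all genes that met the level minimum. Of 110 chosen without number 2 it was 108 (30.9% of all), and of 154 chosen without number 3 it was 148 (28.6%). A difference of at least 1.5 was seen in 84 (49.7%), 86 (78.2%) and 86 (55.8%) of these genes, where the corresponding background was 0.978, 2.39 and 1.22%. Of the genes chosen, 142, 101 and 132 were among the 150. The libraries left out also entered the stage means that chose the 150. These counts thus describe the replicate numbers and are no separate check of the set. For number 2, the only stage 4 library left out was replicate 2, the lowest stage 4 library in 112 of 150 members. A low stage 4 value can raise the difference, so the 78.2% is not compared with the other shares. No p-value is given, since each number left out provides a single value per stage.

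The libraries from hydroponics entered the rule only through the TMM scaling over all 26 libraries. With TMM over the 15 wild leaf libraries alone, 142 genes met the rule, 139 of them among the 150. In hydroponics the members were more often undetected in roots than the genes that met the level minimum. The rule also made the members lower at stages 1, 4 and M than at their peak. The genes at the level minimum need not be, so the groups are not matched. All 3 white root libraries were under 1 CPM for 30 of 150 members, against 2.46% of the genes at the level minimum, and all 5 cluster root libraries for 30 members, against 2.59%. The mature leaf libraries were all under 1 CPM for 7 members (0.661%). Of the 103 genes that met the rule without stage 4 replicate 2, 28 were under 1 CPM in white roots and 28 in cluster roots. Only 3 members were under 1 CPM in all 11 hydroponic libraries (0.136%): TRINITY_DN15088_c0_g1, TRINITY_DN2204_c0_g2 and TRINITY_DN8731_c0_g1. The last of these had no count in any hydroponic library, while it reached 51.5, 56.9 and 73.7 CPM in the stage 2 leaves. TRINITY_DN2204_c0_g2 had 28.3, 27.7 and 32.6 CPM in the stage 3 leaves.

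Members passed the test between mature leaf and white root in both directions. In edgeR's quasi-likelihood test of mature leaf over white root, with log10 Pi as a covariate, 140 members were tested. At a Benjamini-Hochberg adjusted p under 0.05, 36 (25.7%) were higher in mature leaf, against 22.7% of the 19418 tested genes, and 32 (22.9%) were higher in white root, against 28.2%. Of the tested members 74 had a positive log2 fold change, against 43.2% of all tested genes, and the median was 0.13 for the members and -0.28 for all tested genes. Among those that passed, mature leaf had at least 4 times the level in 30 and white root in 20. Some of the tested members were under 1 CPM in every white root library. Such members could pass the count filter through the mature leaf libraries alone, and could then be called only as higher in mature leaf. The 36 include genes of this kind, so the counts higher in mature leaf are not read as a preference of the set. The libraries of a tissue differ in Pi and are not replicates of one condition, so the spread behind these p-values is what remained after a linear Pi term. Within the set, the 83 genes with stage 1 as the nearest outer stage held 18 that were higher in mature leaf, 23 higher in white root, 34 that did not pass and 8 not tested. The 64 with stage 4 as the nearest held 17 higher in mature leaf, 9 higher in white root, 37 that did not pass and 1 not tested. This split by nearest stage depends in part on stage 4 replicate 2.

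The largest fold changes toward mature leaf were those of the 2 members with the most counts. With white roots at or near 0, the size of such a fold follows the leaf counts and does not rank preference. TRINITY_DN2119_c0_g1 and TRINITY_DN20240_c0_g2, for example, had no count in any white root library either. TRINITY_DN25837_c0_g1 had 564, 675 and 776 CPM in the mature leaves at 1, 10 and 50 uM Pi and no count in any white root library. It was at least 10750-fold higher in mature leaf, against 3 counts over the white root group (edgeR, adjusted p = 6e-05). That bound was 6763-fold, 7198-fold or 7548-fold without the white root library at 1, 10 or 50 uM Pi. TRINITY_DN3242_c0_g1 had 491, 731 and 1203 CPM in the mature leaves and 3 counts over the white roots, a ratio of 12890 with a 95% interval of 4411 to 62510 (exact binomial, counting error only; edgeR, adjusted p = 4.03e-05). Both genes were at or near 0 in cluster roots as well.

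The members with the strongest root preference had more CPM in white roots than at their own peak in the wild leaves. TRINITY_DN10336_c0_g1 had 0.653, 0 and 0 CPM in the mature leaves at 1, 10 and 50 uM Pi, against 185, 205 and 126 CPM in the white roots (log2 fold change -9.84; edgeR, adjusted p = 0.000269). Without the mature leaf at 1 uM Pi, which held its only leaf counts, it was at least 1943-fold higher in white root. Without white root at 1 uM Pi the log2 fold change was -11.12, and without mature leaf at 50 uM Pi it was -9.16. In the wild leaves it had 21.9, 18.2 and 20.6 CPM at stage 2 and 19.2, 16.6 and 24.0 CPM at stage 3, and no count at stages 4 and M. TRINITY_DN21682_c0_g2 had 0.490, 0.183 and 2.39 CPM in the mature leaves, against 246, 348 and 391 CPM in the white roots (log2 fold change -8.56, and -9.66 without mature leaf at 50 uM Pi; edgeR, adjusted p = 0.000204). At wild leaf stage 3 it had 9.70, 16.6 and 22.0 CPM.

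In mature leaves most members were highest in the library with the most phosphate. Their summed share of the counts was 0.448% at 1 uM Pi, 0.592% at 10 uM and 1.05% at 50 uM, and their median level was 7.24, 9.10 and 15.6 CPM in the same order. Among the 112 members with at least 100 counts in either library, 101 (90.2%) were higher at 50 than at 1 uM Pi, against 48.7% of the 12566 genes counted likewise. The median log2 difference was 0.98 for the members and -0.02 for all genes. At least 4-fold higher at 50 uM were 20 of the 112, against 5.23% of all genes, and at least 4-fold lower were 2, against 1.89%. The level was highest at 50 uM in 115 of 143 members with at least 1 CPM in a mature leaf, against 40.8% of all such genes.

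That shift rested mostly on the single library at 50 uM Pi. Between 10 and 1 uM, 62 of 90 members (68.9%) were higher at 10 uM, against 48.3% of all genes, and none differed 4-fold (0.563% of all genes were at least 4-fold higher and 0.298% at least 4-fold lower). Of the genes that met the rule without stage 4 replicate 2, 66 of 71 were higher at 50 than at 1 uM. The stage 3 class (46 of 48) and the shared class (54 of 63) both leaned this way. These counts were chosen after the values had been seen, and with 1 library per Pi level the plant and the Pi level cannot be told apart.

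The white roots did not lean the same way. There 32 of 96 members (33.3%) were higher at 50 than at 1 uM Pi, against 51.6% of all genes, with a median log2 difference of -0.29 for the members and 0.02 for all genes. At the same time, at least 4-fold higher were 2 members, against 1.37% of all genes, and at least 4-fold lower was 1, against 2.43%. Between 10 and 1 uM, 57 of 96 members (59.4%) were higher at 10 uM, against 53.6% of all genes, with 1 at least 4-fold higher (1.2%) and 3 at least 4-fold lower (3.07%). The white root level was highest at 1 uM in 48 of 120 members (38.4% of all genes), at 10 uM in 55 (34.9%) and at 50 uM in 17 (26.7%). Among genes at the level minimum the shares were 32.3, 44.8 and 22.9%, beside 40, 45.8 and 14.2% of the members, in the same order. By gene, the edgeR fit of mature leaves and white roots called no member for Pi, at a background of 0%, and 16 of 140 had an unadjusted p under 0.05, against 7.60% of all genes. All 16 were higher with more Pi. On the same libraries DESeq2 called 5 of 141 members higher with Pi (3.55%), against 0.91% of 18463 genes, and 0 lower, against 0.894%. The test of a tissue by Pi difference called no gene either (background 0%), with a lowest adjusted p of 0.0856 among the members by edgeR. At an unadjusted p under 0.05 it held 32 of 140 members, against 11.9% of all genes, and in 28 of the 32 mature leaf had the higher slope with Pi. The difference in Pi slope between the tissues did not pass for any member.

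**Figure D4:**
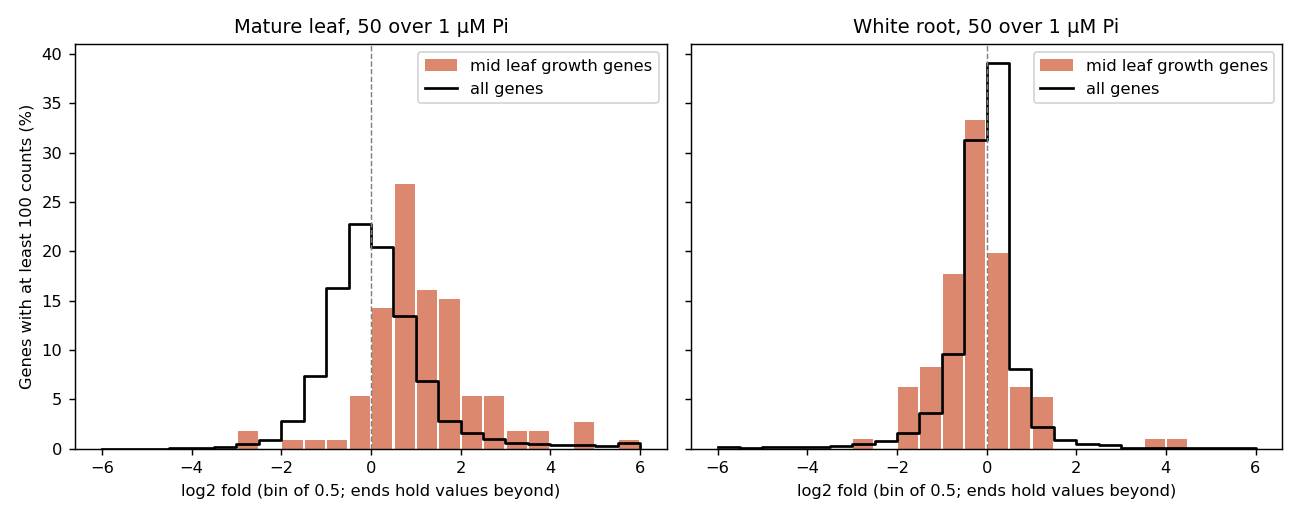
Distribution of the log2 fold of 50 over 1 uM Pi in mature leaf (left) and white root (right), as the percent of genes with at least 100 counts in either library; bars are the mid leaf growth genes and the line is all genes. In mature leaf 101 of 112 members lie above 0, and in white root 32 of 96.

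Against other genes that met the level minimum, the members, with 90.2% higher at 50 than at 1 uM Pi in mature leaf, stood above every group sorted by wild leaf stage. Among genes outside the set, this share was 50.7% of 2107 genes with their highest mean at stage 1, 60% of 858 for stage 2, 64.1% of 1544 for stage 3, 36.1% of 1141 for stage 4 and 32.8% of 3267 for stage M. These groups hold genes with a peak of any height, so they are not matched to the members. The share among genes just short of the threshold was not counted. All these shares describe a single pair of libraries.

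Among the members, chosen after their values were seen, TRINITY_DN9710_c0_g1 and TRINITY_DN18725_c0_g1 differed most between the mature leaves. TRINITY_DN9710_c0_g1 had 0, 2.38 and 11.3 CPM at 1, 10 and 50 uM Pi, and 33.3, 50.9 and 52.6 CPM in the stage 3 wild leaves. TRINITY_DN18725_c0_g1 had 0.816, 5.74 and 32.6 CPM at 1, 10 and 50 uM Pi, while the white roots had 31.3, 30.1 and 22.3 CPM. It carried the lowest adjusted p of the tissue by Pi term. The 2 members that were at least 4-fold lower at 50 uM were TRINITY_DN1650_c0_g1, with 10.99, 3.36 and 1.34 CPM, and TRINITY_DN31_c0_g2, with 17.95, 7.71 and 2.74 CPM, at 1, 10 and 50 uM Pi.

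Over the life of a cluster root, the members were more often highest on days 1 and 4 than genes in general. Of 120 members with at least 1 CPM in a cluster root, 39 (32.5%) were highest on day 0, against 29.6% of all such genes. On day 1 it was 22 (18.3%, against 10.3%), on day 4 it was 26 (21.7%, against 8.23%), on day 7 it was 14 (11.7%, against 11.2%) and on day 12 it was 19 (15.8%, against 40.7%). Only 1 library stands behind each day, so these are values of 5 libraries with no replicate check. In the genes kept without stage 4 replicate 2, 27 of 75 were highest on day 1 or 4, and in all members 48 of 120.

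**Figure D5:**
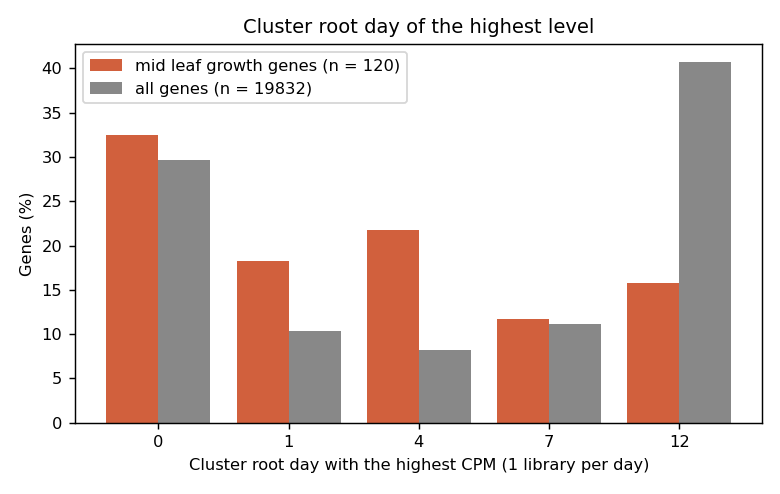
Percent of genes whose highest cluster root CPM fell on each day, for the 120 mid leaf growth genes and all 19832 genes with at least 1 CPM in a cluster root library. The members' bars are taller on days 1 and 4 (18.3% and 21.7%) and shorter on day 12 (15.8% against 40.7%).

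Between day 0 and day 12 more members were lower than higher. Among 89 members with at least 100 counts on either day, 11 were at least 4-fold higher on day 12 than on day 0, against 12.2% of all genes, and 33 were at least 4-fold lower, against 15.2%. The median log2 difference was -1.08 for the members and 0.03 for all genes. In the genes kept without stage 4 replicate 2, 7 of 54 were at least 4-fold higher and 23 at least 4-fold lower. On day 4 the counts were 5 higher and 8 lower of 89, against 2.89% and 0.687% of all genes.

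The extremes went far in both directions. TRINITY_DN10785_c0_g2 had 0.0624, 0.890, 0.0785, 170 and 1187 CPM on days 0, 1, 4, 7 and 12. Its day 12 library held 10400 counts and its day 0 library 1, a ratio of 19020 with a 95% interval of 3413 to 751400 (exact binomial, counting error only). In the wild leaves it had 44.2, 35.2 and 5.95 CPM at stage 3, so its replicates differed widely there. TRINITY_DN385_c0_g2 had 8.73, 16.9, 14.5, 196 and 3630 CPM on days 0, 1, 4, 7 and 12, and 252, 882 and 2016 CPM in the mature leaves at 1, 10 and 50 uM Pi.

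Of the members lower on day 12, TRINITY_DN326_c0_g1 had 64.5, 16.8, 5.10, 3.93 and 0.342 CPM on days 0, 1, 4, 7 and 12. Its 3 counts on day 12 made it 188-fold lower than on day 0, with a 95% interval of 64.2 to 914. TRINITY_DN5906_c0_g1 had 21.6, 3.26, 0.157, 0.0801 and 0 CPM on the same days, and was at least 63.1-fold lower on day 12 than on day 0, against 3 counts in that library. The member with the highest cluster root value, singled out after it was seen, was TRINITY_DN2570_c0_g1, with 774, 1653, 2799, 5773 and 5748 CPM on days 0, 1, 4, 7 and 12. In the wild leaves it averaged 2744 ± 333 CPM at stage 3 and 117 ± 10.9 CPM at stage 1 (SD, n = 3 each).

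Cluster roots and white roots were seldom set apart by these genes. In 3 of 122 members with at least 1 CPM in a root library all 5 cluster root libraries lay above all 3 white root libraries, against 3.26% of all genes. In 6 members they all lay below, against 4.43%. Both shares were close to the background. TRINITY_DN19214_c0_g1, one of the leading genes of the stage 3 class, was among the 3, with 28.5, 55.5, 74.9, 87.8 and 103 CPM in the cluster roots by day and 23.0, 13.0 and 5.91 CPM in the white roots at 1, 10 and 50 uM Pi.

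Isoform make-up, which the sum per gene does not use, passed the test of a shift between stages 2 and 3 in none of the members tested. A single isoform was present in the data for 86 of 150 members (57.3%), against 31% of the genes at the level minimum and 53.3% of all 25047 genes. In the other 64 the main isoform held a median of 74.8% of the gene's counts at the peak stage, with a range of 35.9 to 100%. In 63 of the 64 at least 1 isoform met the thresholds of the rule on its own, and in 24 at least 2 did. Between stages 3 and 2 the share of the main isoform changed by a median of 3.09 percentage points in either direction.

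Of 56 members with isoforms to compare, 0 differed in isoform shares between stage 3 and stage 2 (edgeR's diffSpliceDGE with Simes p-values, Benjamini-Hochberg adjusted), at a background of 0.361% of 7477 genes. An unadjusted p under 0.05 was seen in 3 of the 56, against 5.02% of all, and edgeR's gene-level F test likewise called 0 members. The lowest p was that of TRINITY_DN9265_c0_g1, a gene with 6 isoforms. Its main isoform held 53.5 ± 1.13% of the counts at stage 3 and 42.7 ± 8.91% at stage 2 (SD, n = 3 each; edgeR, adjusted p = 0.509). The next was TRINITY_DN963_c0_g2, with 90.8 ± 0.384% at stage 3 and 82.0 ± 2.84% at stage 2 (SD, n = 3 each; edgeR, adjusted p = 0.691). Estimated counts of isoforms that share reads are themselves uncertain.

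Some members may be pieces of 1 locus or close copies. Among the 150, 14 shared the DN number of their Trinity ID with another member, in 7 pairs. The c number that follows differed between TRINITY_DN326_c0_g1 and TRINITY_DN326_c1_g1, and between TRINITY_DN6272_c0_g1 and TRINITY_DN6272_c1_g1. Reads could be split between such pairs. In the pair TRINITY_DN18293_c0_g1 and TRINITY_DN18293_c0_g2 the stage means ran together, with log2(CPM + 1) of 3.75, 4.76, 5.38, 2.57 and 1.41 against 3.24, 4.18, 4.91, 2.30 and 1.27 at stages 1, 2, 3, 4 and M. In the pair TRINITY_DN137_c1_g1 and TRINITY_DN137_c1_g2 they parted between stages 2 and 3. The first had 8.50 and 9.49 at stages 2 and 3, and the second 6.65 and 5.75. At stage 4 the first had 6.59 and the second 0, and at stage M 5.59 against 0.24.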

How the data were processed

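RNA was sequenced from TruSeq Stranded Total RNA libraries depleted of ribosomal RNA, per the labels' protocols. The authors deposited estimated counts for each assembled transcript, not scaled to library size, since column totals differ. Trim Galore 0.6.6, kallisto (no version) and DESeq2 1.30.1 are named in the submitters' processing notes. No source used here states the assembly, strand handling or filters. Reads shared by isoforms or close copies are split by estimation.

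Isoforms were summed per Trinity gene, and levels are CPM with TMM factors over all 26 libraries. For tests, estimated counts were rounded to whole numbers and kept by filterByExpr (minimum count 10, minimum total 15). After TMM scaling they entered the robust quasi-likelihood test of edgeR 4.0.16 in R 4.3.3, with Benjamini-Hochberg adjustment over all tested genes. The mature leaf and white root libraries entered a fit of tissue plus log10 Pi (3 residual degrees of freedom). Isoform shares were tested with diffSpliceDGE over the 15 wild leaf libraries with stage as the only factor. Differences by size used log2 CPM with a prior count of 2, where either library held 100 counts, and a 4-fold limit. Alternatives were DESeq2 1.42.0, other scalings, filters and pseudocounts, and leaving out each library.

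The members, classes and lists were chosen with earlier results of these data known. Named genes are the 2 leading genes of each class, the 2 with the highest peak, those next to the threshold, and the 2 with the largest difference in each direction per comparison, among members that passed the test with ranges apart where there was one. For isoforms they are the 2 with the lowest p. Others are marked as chosen after their values were seen. Libraries with the same replicate number deviated together from their stage means (30 pairs, r = 0.158 to 0.587). Equal numbers may thus be pairs, judged from the values alone. The main isoform fit did not use this pairing, and the replicate block was fitted as an alternative. P-values measure only the spread between these samples. Intervals cover counting error only.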

Additional observations from a re-analysis of the deposited data

How the results depend on the processing

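The number of genes that met the rule was 135 to 152 under 4 other scalings. It was 156 and 105 with a pseudocount of 0.25 and 5, and 128 with stage medians. With 1 library left out it was 103 to 172, 103 without stage 4 replicate 2 and 172 without stage 4 replicate 1. Of the 150 members, 146 had at least 1 isoform that met the rule on its own, with TMM factors from the isoform counts. Plain CPM shared only 110 of the 150 genes, and 143 genes met the rule there. Members called between mature leaf and white root numbered 28 to 44 higher in leaf and 23 to 39 higher in root over all alternatives. With DESeq2, 5 members were higher with Pi where edgeR called 0, while over all 18463 genes DESeq2 called 168 higher and 165 lower and edgeR called 0. They were led by TRINITY_DN9710_c0_g1 (log2 fold change 3.74 per 10-fold Pi, adjusted p = 0.000568, by DESeq2); the others were TRINITY_DN9662_c0_g1, TRINITY_DN5293_c0_g2, TRINITY_DN3476_c0_g1 and TRINITY_DN7775_c0_g1, and the cause was not tested. In a fit of stages 2 and 3 alone 1 member, TRINITY_DN4861_c0_g1, differed in isoform shares (edgeR, adjusted p = 0.0423) where 0 did over all 15 libraries, and the cause was not tested. Adding the replicate block to the isoform fit also gave 0 members called and changed no call of a member. The lowest adjusted p of a member was 0.102 with the block and 0.509 without it (edgeR). Over all genes the fit with the block called 35 and the one without it 27. The 2 stages alone called 65, the gene-level F test 66, and fits with a library left out 15 to 41. Counts by size in cluster roots, and of members higher at 50 uM Pi, stayed within 1.5 times under every setting tried. The libraries of stages 4 and M were shallow, which limits how low a member can be measured there.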
